A study of Mus musculus with 8 samples.

Results

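The subcortical maternal complex is an assembly of proteins that lies beneath the membrane of the mammalian egg and early embryo. A set of 10 maternal genes was read by name from a mouse array of 18193 genes: Nlrp5, Ooep, Tle6 and Khdc3, which encode core proteins of the complex, Padi6, and the oocyte Nlrp genes Nlrp4a, Nlrp4b, Nlrp4f, Nlrp9b and Nlrp14. Each of the 10 had 1 probe set annotated to it alone, so no second probe set could be set beside it. The study compared connexin 43 (CX43, gene Gja1) knockout (KO) material with wild type (WT) at 3 stages: MII oocytes (1 KO and 1 WT array), blastocysts (2 KO and 2 WT arrays) and implantation sites (1 KO and 1 WT array). The series title describes the depletion of CX43 as directed to the oocyte, so that the blastocysts and implantation sites are named for the origin of the egg; the promoter that drove the deletion, the strain and the ages of the mice, and whether eggs or embryos were pooled are not stated in the labels. The comparison by genotype addresses the effect of CX43 on the transcriptome at each stage.

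The proteins of the complex are made during oocyte growth, persist into the embryo after most maternal messages are gone, and are needed in the mother's egg for the cleavage divisions of her embryos. NLRP5, also called MATER, is an NLR-family protein, OOEP (FLOPED) and KHDC3 (FILIA) carry KH-like domains, and TLE6 is related to the Groucho corepressors. PADI6 belongs to the peptidylarginine deiminases and is needed for the cytoplasmic lattices of the egg. Many other Nlrp genes of the mouse form a reproductive branch that is transcribed in oocytes.

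Values are array signals on a linear scale, with a 2% trimmed mean of 500 on every array. The brightest of the Bacillus control probe sets of an array, which read 100 to 560, was taken as its background level. Where the dimmer group of a stage comparison held readings below it, the fold is a bound, written "at least N-fold" and computed from the mean log2 values with that level in place of each such reading, while log2 differences are of the values as deposited. Applying this where only some readings of a group were below was chosen after seeing the data. Gja1 had 6 probe sets of its own, and the one with the highest mean read 150 on the KO and 126 on the WT oocyte array, 375 and 553 on the KO blastocyst arrays, 9835 and 574 on the WT blastocyst arrays, and 28105 on the KO and 44493 on the WT implantation site array. On that probe set both oocyte readings and both KO blastocyst readings were below background, so a loss of Gja1 in KO oocytes cannot be read from it. Blastocyst WT replicate 1 read above both KO blastocyst arrays on 5 of the 6 probe sets and WT replicate 2 on 2. The array labelled WT replicate 2 thus lay near the KO blastocysts on the probe set given, and blastocyst genotype results are given with and without it. The labels do not state which exons were removed or where on the transcript the probes lie. Of 10 oocyte markers, 8 were above background on both oocyte arrays, while Zp3 was below on both. All 8 trophectoderm markers were above background on all 4 blastocyst arrays, as were 5 of 7 inner cell mass markers. On the implantation site arrays, 10 of 11 markers of uterus and decidua were above background on both, with Pgr at 30636 in KO and 27384 in WT. Of the 7 inner cell mass markers 5 were below background on both, among them Nanog and Sox2, and 1 was above on both. Of the 8 trophectoderm markers 4 were below on both, among them Cdx2, and 4 were above on both (Eomes, Krt8, Krt18 and Tfap2c). The label of these arrays names embryo, and the uterine markers are bright, so fewer embryonic cells and less RNA per cell cannot be told apart in the values of the implantation site.

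RefSeq promoter windows (GRCm38.p6) were found for 9 of the 10 genes, in 13 windows, and the 250 bases upstream of each start site were searched on both strands. An E-box (CANNTG) lay anywhere in 66.2% of all 32851 windows. It began between -84 and -75 of a start site in 5 of the 9 genes, against 5.54% of all genes with a window. That stretch was chosen after the positions in these genes had been seen, so the share is a description without a test. The 5 stretches are printed because each holds an E-box at a like distance from a start site. As printed, these boxes share only the CA and TG that define an E-box, and their middle letters differ. The E-box is in capitals and each sequence runs 5′ to 3′ on the strand of its gene.
Ooep, chr9:78378641-78378686, minus strand, E-box at -78: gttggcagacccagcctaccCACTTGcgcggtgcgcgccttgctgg
Khdc3, chr9:73102300-73102345, plus strand, E-box at -78: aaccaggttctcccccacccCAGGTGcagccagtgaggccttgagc
Padi6, chr4:140742696-140742741, minus strand, E-box at -78: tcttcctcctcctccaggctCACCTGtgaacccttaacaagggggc
Nlrp4a, chr7:26435013-26435058, plus strand, E-box at -80: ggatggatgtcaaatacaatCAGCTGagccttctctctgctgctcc
Nlrp4b, chr7:10687724-10687769, plus strand, E-box at -77: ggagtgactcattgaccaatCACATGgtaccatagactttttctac

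The Nlrp4a position was counted from the first of its RefSeq start sites and the Nlrp4b position from the second of its own. The genes of this set did not share a stage pattern: Khdc3 was far brighter in blastocysts than in oocytes, Ooep differed 1.73-fold without passing the test, and Padi6, Nlrp4a and Nlrp4b were far dimmer in blastocysts. The NOBOX element (TAATTA or TAATTG) was in windows of Nlrp5, Ooep and Nlrp9b and in 11.3% of all windows.

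Nlrp4a, Nlrp4b and Nlrp4c, a close paralog outside the 10 genes, had the same 12 letters, CCAATCACATGG, upstream of a start site. These letters were found as the longest run common to the compared windows of these genes, so that the genes share them was fixed in advance. They contain both a CCAAT box and an E-box, and in Nlrp4b hold the E-box printed above. They occurred in 6 of 32851 windows (0.0183%), which include those of these genes, so the share is a description without a test. Over the aligned bases, the window of the second Nlrp4a start site, from which its letters are counted, had 185 of 230 positions identical to that of the first Nlrp4b start site. The Nlrp4c window had 166 of 210 (79%) identical to that second Nlrp4a window. The first Nlrp4a window had 32 of 45 identical to the first Nlrp4b window. The 141 other pairs of windows compared had 1 to 153 identical positions, with a median of 72.0. By percentage the difference was small, with 77.4% for Ooep and the first Tle6 window (147 of 190). The 120 bases upstream that hold the shared letters are printed because these paralogs were set against each other by stage, with the shared letters in capitals.
Nlrp4a, chr7:26435494-26435613, plus strand, letters at -50: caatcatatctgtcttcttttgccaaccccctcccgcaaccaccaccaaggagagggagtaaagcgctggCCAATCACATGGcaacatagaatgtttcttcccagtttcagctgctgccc
Nlrp4b, chr7:10687673-10687792, plus strand, letters at -54: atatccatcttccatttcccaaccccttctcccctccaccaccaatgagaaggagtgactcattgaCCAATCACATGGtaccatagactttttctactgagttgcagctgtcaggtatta
Nlrp4c, chr7:6045041-6045160, plus strand, letters at -18: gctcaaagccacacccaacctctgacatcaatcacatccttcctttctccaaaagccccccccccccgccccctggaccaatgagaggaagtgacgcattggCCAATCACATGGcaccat

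By stage, all 10 genes were above background on both oocyte arrays, 2 on all 4 blastocyst arrays (Ooep and Khdc3) and 1 on both implantation site arrays (Ooep). How the level of each gene differed between stages was tested with limma over all 8 arrays, with stage and genotype in the fit. The sample titles begin with exp_a for oocytes, exp_b for blastocysts and exp_c for implantation sites, and do not explain the letters. If the letters mark separate experiments, stage and experiment cannot be told apart in these tests. The 3′ to 5′ ratio of the Actb control probe sets was 6.68 (KO) and 33.4 (WT) in oocytes. In blastocysts it was 25.7 and 39.0 (KO) and 69.3 and 69.1 (WT), and at the implantation site 27.9 (KO) and 21.2 (WT). That of Gapdh was 2.41 (KO) and 10.1 (WT) in oocytes and 11.2 and 11.8 (KO) and 7.27 and 7.71 (WT) in blastocysts. What part these ratios had in the stage or genotype differences was not tested.

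Nlrp5 (chr7:23385889-23441923), the NLR protein of the complex, read 2555 on the KO and 2083 on the WT oocyte array. In blastocysts it read 150 and 295 in KO and 185 and 145 in WT, and at the implantation site 88.1 in KO and 112 in WT. All 4 blastocyst readings were below background, and both oocyte readings lay above every other array. The blastocysts were at least 7.36-fold lower than the oocytes (log2 -3.64, SE 0.58, adjusted p = 3.60e-04, limma).

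Ooep (chr9:78376903-78378588), the small KH-domain protein on which the complex depends, was the one gene above background on all 8 arrays. It read 2314 on the KO and 1614 on the WT oocyte array, 963 and 1231 on the KO blastocyst arrays, 1293 and 1008 on the WT blastocyst arrays, and 312 in KO and 301 in WT at the implantation site. The lowest oocyte array was above the highest blastocyst array, and the lowest blastocyst array above both implantation site arrays. Blastocysts were 1.73-fold lower than oocytes, which did not pass (log2 -0.79, SE 0.36, adjusted p = 0.0919, limma). The implantation site was 3.64-fold lower than blastocysts (log2 -1.86, SE 0.36, adjusted p = 0.00231) and 6.31-fold lower than oocytes (log2 -2.66, SE 0.41, adjusted p = 4.61e-04).

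Tle6 (chr10:81590904-81601185), the Groucho-related component, read 993 on the KO and 370 on the WT oocyte array. In blastocysts it read 212 and 379 in KO and 68.9 and 318 in WT, with only the array labelled WT replicate 2 above its background level, and at the implantation site 37.7 in KO and 218 in WT. Blastocysts and oocytes overlapped, since the WT oocyte array lay between blastocyst arrays. Neither the blastocyst difference from oocytes (log2 -1.57, SE 0.95, adjusted p = 0.204) nor that of the implantation site (log2 -2.74, SE 1.10, adjusted p = 0.0713) passed the limma test. The second passed under other settings, for example after quantile normalization (adjusted p = 0.0487), over a range of 0.0122 to 0.58 in all alternatives.

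Khdc3 (chr9:73101381-73106631), the KH-domain component, was the one member that was brightest in blastocysts. It read 731 on the KO and 255 on the WT oocyte array, 6890 and 8451 on the KO blastocyst arrays, 11481 and 9576 on the WT blastocyst arrays, and 135 in KO and 52.4 in WT at the implantation site. All 4 blastocyst arrays were above both oocyte arrays, and both of these were above the implantation site. Khdc3 rose 20.7-fold in blastocysts relative to oocytes (log2 4.37, SE 0.47, adjusted p = 1.98e-05, limma). The log2 difference was 3.69 without the oocyte WT array and 5.06 without the oocyte KO array. It was at least 77.0-fold lower at the implantation site than in blastocysts (log2 -6.73, SE 0.47, adjusted p = 3.71e-06), where the WT array read below background. The embryonic markers Nanog, Sox2 and Cdx2 were also dim there, while 4 of 8 trophectoderm markers were above background on both arrays. What part this had in the result was not tested. The lower level at the implantation site than in oocytes (log2 -2.36, SE 0.54, adjusted p = 0.00501) no longer passed without the oocyte KO array (log2 -1.68, adjusted p = 0.0714), and adjusted p reached 0.0962 when only the arrays of both stages were fitted.

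Padi6 (chr4:140727355-140742643), the deiminase of the cytoplasmic lattices, read 3031 on the KO and 2137 on the WT oocyte array. In blastocysts it read 48.0 and 86.4 in KO and 209 and 265 in WT, and at the implantation site 12.7 in KO and 127 in WT. Every other array was well under both oocyte arrays, and in the blastocysts only the WT arrays exceeded background. Padi6 was at least 7.66-fold lower in blastocysts than in oocytes (log2 -4.37, SE 0.84, adjusted p = 0.00127, limma), a call lost without the oocyte KO array (log2 -2.94, adjusted p = 0.0740). Without the oocyte WT array the log2 difference was -5.80, and adjusted p ran from 8.89e-06 to 0.074 over all alternatives. It was at least 19.7-fold lower at the implantation site than in oocytes (log2 -5.99, SE 0.97, adjusted p = 6.13e-04), with a log2 difference of -4.56 without the oocyte KO array and -7.42 without the oocyte WT array.

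**Figure D1:**
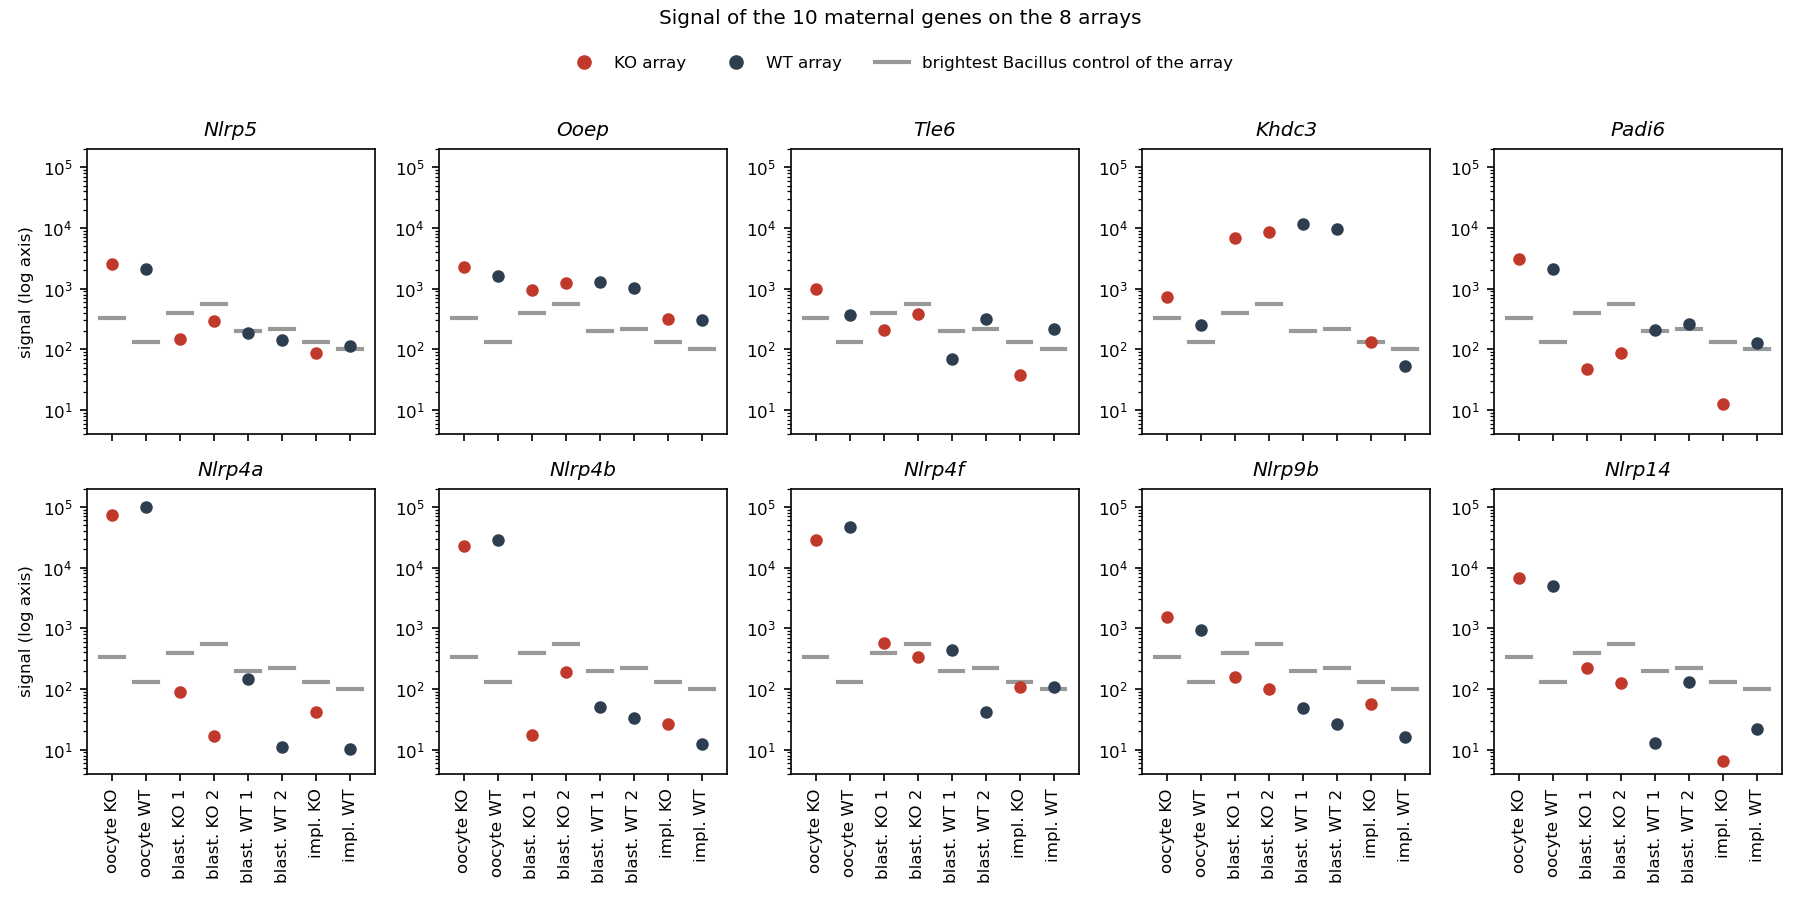
Signal of the 10 genes on each of the 8 arrays (log axis), with the KO arrays in red and the WT arrays in dark blue, and the brightest Bacillus control of each array as a grey bar. Khdc3 is highest on the 4 blastocyst arrays, Ooep stays above the grey bar on all 8 arrays, and the other 8 genes are highest on the oocyte arrays except Tle6, whose WT oocyte reading lies among the blastocyst readings.

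Among the oocyte Nlrp genes, Nlrp4a (chr7:26435113-26476142) read 74277 on the KO and 98872 on the WT oocyte array. In blastocysts it read 90.1 and 17.0 in KO and 147 and 11.1 in WT, and at the implantation site 42.1 in KO and 10.1 in WT. Only the oocyte arrays exceeded background. The blastocysts were at least 273-fold lower than the oocytes (log2 -11.1, SE 1.07, adjusted p = 1.03e-05, limma; -10.4 to -11.9 with 1 array left out), and the implantation site at least 748-fold lower.

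Nlrp4b (chr7:10687793-10730168) read 22610 on the KO and 28397 on the WT oocyte array, 17.8 and 192 on the KO blastocyst arrays, 49.97 and 32.7 on the WT blastocyst arrays, and 26.4 in KO and 12.5 in WT at the implantation site. It too exceeded background on the oocyte arrays only. The blastocysts were at least 80.8-fold lower than the oocytes (log2 -9.03, SE 0.95, adjusted p = 1.82e-05, limma), with a log2 difference of -8.36 without blastocyst KO replicate 1 and -9.73 without KO replicate 2.

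Nlrp4f (chr13:65177111-65205716), the one Nlrp gene of the set that is not on chromosome 7, read 28023 on the KO and 46261 on the WT oocyte array. In blastocysts it read 577 and 341 in KO and 436 and 42.5 in WT, with 1 array of each genotype above background, and at the implantation site 106 in KO and 107 in WT. It was at least 85.9-fold lower in blastocysts than in oocytes (log2 -7.20, SE 0.83, adjusted p = 3.37e-05, limma). The log2 difference was -6.27 without the oocyte WT array, -6.32 without blastocyst WT replicate 2 and -8.12 without the oocyte KO array.

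Nlrp9b (chr7:19991393-20062942) and Nlrp14 (chr7:107113455-107198103) were bright in oocytes and under the filter on mean signal over the 8 arrays. Nlrp9b read 1512 on the KO and 953 on the WT oocyte array, 158 and 102 on the KO blastocyst arrays, 48.3 and 26.8 on the WT blastocyst arrays, and 56.9 in KO and 16.04 in WT at the implantation site. Nlrp14 read 6753 on the KO and 5019 on the WT oocyte array, 220 and 124 on the KO blastocyst arrays, 13.0 and 131 on the WT blastocyst arrays, and 6.46 in KO and 21.8 in WT at the implantation site. Both exceeded background on the oocyte arrays only. Tested without the filter, blastocysts were at least 3.83-fold lower for Nlrp9b (log2 -4.15, SE 0.90, adjusted p = 0.00240) and at least 18.6-fold lower for Nlrp14 (log2 -6.14, SE 1.09, adjusted p = 5.30e-04, limma).

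Over the set, 8 of the 10 genes passed the filter, some through their oocyte level alone. In blastocysts against oocytes, limma called 1 of these 8 higher and 5 lower, where 26.9% of all 11746 genes tested were called higher and 18.6% lower. Without the filter 1 of 10 was higher and 7 were lower, against 16.9% and 13.1% of 18193 genes, with a median log2 difference of -4.26 in the set and 0.18 over all genes. At the implantation site against oocytes, 9 of 10 were lower without the filter, against 12.2% of genes, and 7 of 8 with it, against 16.6%. None was higher, where 13.2% of genes were higher without the filter and 20.5% with it. At the implantation site against blastocysts, Ooep and Khdc3 were lower and the other 8 did not pass, where 20.0% of genes were lower and 15.3% higher with the filter, and 15.1% lower and 10.5% higher without it. Both oocyte arrays were above all 6 others for 8 of the 10 genes, as for 15.2% of all genes.

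**Figure D2:**
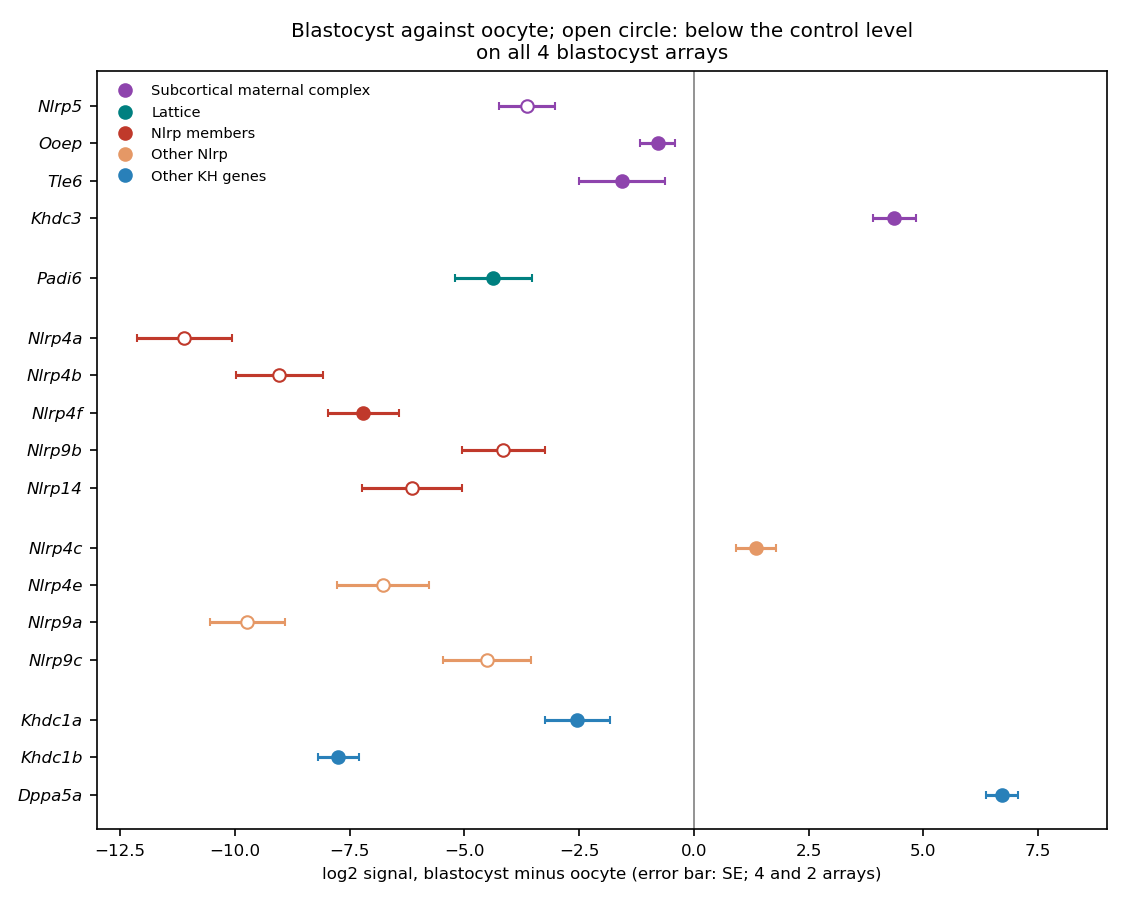
Log2 signal in blastocysts minus oocytes (4 and 2 arrays, bars show the SE of the fit without the filter) for the 10 genes, for other reproductive Nlrp genes and for other KH genes, with open circles where all 4 blastocyst arrays were below background. Khdc3, Nlrp4c and Dppa5a lie to the right of 0 and the rest to the left, from Ooep at -0.79 to Nlrp4a at -11.1.

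Relatives of the 10 genes differed from them in places. Of 7 other reproductive Nlrp genes listed, 4 were on the array under a probe set of their own. Without the filter 3 of these were lower in blastocysts than in oocytes, and Nlrp4c was higher. Nlrp4c read 2122 and 1930 on the KO and 3050 and 1613 on the WT blastocyst arrays, against 655 on the KO and 1055 on the WT oocyte array. It rose 2.55-fold in blastocysts (log2 1.35, SE 0.42, adjusted p = 0.0202, limma), whereas Nlrp4a and Nlrp4b, whose upstream letters are printed above beside its own, were below background there. Nlrp4c was at least 18.5-fold lower at the implantation site than in blastocysts. Nlrp9a read 29141 on the KO and 32734 on the WT oocyte array and was at least 98.5-fold lower in blastocysts, Nlrp4e at least 16.3-fold and Nlrp9c at least 6.61-fold. On chromosome 7, Nlrp4a lies between Nlrp9c, 31413 bases away, and Nlrp9a, 58881 bases away, and Nlrp5 lies 23612 bases from Nlrp4e. Close paralogs can bind the same probes, and the probe sequences were not analysed here.

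The other KH genes also split. Dppa5a, whose gene lies 8704 bases from Ooep on chromosome 9, read 23784 and 24584 on the KO and 35300 and 25225 on the WT blastocyst arrays, against 148 on the KO and 445 on the WT oocyte array. It rose at least 69.7-fold in blastocysts (log2 6.71, SE 0.35, adjusted p = 3.83e-07, limma), while its neighbour Ooep was 1.73-fold lower there without passing the test. Khdc1b fell at least 198-fold in blastocysts relative to oocytes (log2 -7.75, SE 0.45, adjusted p = 7.06e-07) and Khdc1a at least 4.53-fold (log2 -2.54, SE 0.68, adjusted p = 0.00932). All 3 were called lower at the implantation site than in blastocysts, where 20.0% of genes tested with the filter were. A second probe set of Khdc1b did not pass there (log2 -0.468, adjusted p = 0.785, limma). Khdc1a and Khdc1b were above background on only 2 of the 4 blastocyst arrays.

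The relatives of TLE6, PADI6 and the NLR proteins are listed by their counts. Of 4 other Tle genes tested, 2 were higher in blastocysts than in oocytes and none lower, where 26.9% of all genes were higher and 18.6% lower: Tle4, a Groucho corepressor, was at least 14.6-fold higher (log2 7.32, SE 0.44, adjusted p = 7.72e-07) and Tle3 at least 3.48-fold higher (log2 2.47, SE 0.43, adjusted p = 6.95e-04). Of the 4 other Padi genes only Padi2 passed the filter, with a blastocyst minus oocyte difference of log2 0.19 (SE 0.72, adjusted p = 0.853, limma), and without the filter none of the 4 was called in that comparison. Of 7 inflammasome and immune NLR genes tested, 2 rose in blastocysts and 0 fell, against the same 26.9% and 18.6% of all genes. They were Nlrx1, a mitochondrial NLR protein (log2 3.01, SE 0.755, adjusted p = 0.00677, limma), and Pycard, the inflammasome adaptor (log2 1.99, SE 0.56, adjusted p = 0.0129). For both, blastocyst KO replicate 2 was itself below its background level of 560, at 353 for Nlrx1 and 430 for Pycard. No bound on the fold is therefore given for them. On both oocyte arrays Nlrx1 was below background, at 91.7 in KO and 28.5 in WT.

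Among 22 partners and other maternal-effect genes tested, 7 were higher and 10 lower in blastocysts than in oocytes, where 26.9% of all genes were higher and 18.6% lower, with a median log2 difference of -0.32 against 0.43 over all genes. Zbed3, a partner of the complex, read 94618 on the KO and 143826 on the WT oocyte array and was at least 320-fold lower in blastocysts (log2 -8.63, SE 0.40, adjusted p = 2.31e-07, limma). The others named by size were the transcription factor Bnc1, at least 18.5-fold lower, Tcl1, at least 57.8-fold lower, and the histone demethylase Kdm1b, at least 17.7-fold lower. Among 13 genes of actin, tubulin and spindle position, 7 were higher and 1 was lower, against the same shares of all genes. The formin Fmn2, which places the meiotic spindle, was at least 13.0-fold lower (log2 -5.02, SE 0.80, adjusted p = 3.57e-04). Cofilin (Cfl1) was 9.63-fold higher (log2 3.27, SE 0.35, adjusted p = 2.08e-05) and Calr 6.93-fold. Ywhaz, also named by size, is among the 7, but of its 7 probe sets 2 were called higher and 5 lower, so no direction is given for it. Probe sets called in both directions were also found for Ywhae and Brwd1 of these lists.

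The genes outside the set whose profile over the 8 arrays was nearest to its mean profile were Rgs17, Zar1, E330016L19Rik, Nkiras1, Fam221a, Prr18, Bmp15 and Fam90a1a. Likeness was the root mean square difference on log2(signal + 50) after centring each gene, and ran from 0.21 for Rgs17 to 0.39 for Fam90a1a. Rgs17 read 5502 on the KO and 5496 on the WT oocyte array, 447 and 581 on the KO and 297 and 329 on the WT blastocyst arrays, and 128 in KO and 139 in WT at the implantation site. By the same measure the members themselves lay between 0.46 (Nlrp5) and 3.41 (Khdc3) from their own mean. The neighbours were picked as the nearest among all genes that passed the filter, so nothing is read from their being nearer than any member.

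For genotype, none of the 10 genes passed the test in KO blastocysts against WT without the filter, and none of the 8 tested with it. Without the array labelled WT replicate 2, which leaves 1 WT array, only members that passed the filter were fitted. Over all genes limma called 12 of 11746 higher in KO (0.102%; 0.0934% without the filter) and 0 lower (0%), with 1030 higher and 788 lower at an unadjusted p under 0.05, among them none of the 8 members tested. The lowest p was that of Padi6, whose KO blastocyst arrays read 48.0 and 86.4 and whose WT arrays read 209 and 265. The KO arrays were 3.65-fold lower (log2 -1.87, SE 0.87, adjusted p = 0.345, limma), but both were under background levels of 395 and 560, higher than the 199 and 219 of the WT arrays. A KO reading at those levels would lie above both WT readings, so no direction can be read for Padi6. Without the array labelled WT replicate 2 its difference was -1.70 (adjusted p = 0.388).

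Khdc3 and Ooep were the members measured above background on all 4 blastocyst arrays. Khdc3 read 6890 and 8451 in KO against 11481 and 9576 in WT, without overlap, a log2 difference of -0.46 (SE 0.29, adjusted p = 0.465) that was -0.59 without the array labelled WT replicate 2 (adjusted p = 0.225). Ooep overlapped between genotypes, with a log2 difference of -0.069 (SE 0.35, adjusted p = 0.943) and -0.25 without that array. Of the 10 members, 1 had both KO blastocyst arrays above both WT arrays (Nlrp9b, below background on all 4) and 2 had both below (Khdc3 and Padi6), where 24.9% and 20.5% of all genes did so. In the fit of a KO difference common to the 3 stages, 0 members were called, as for all genes (0%), with 428 higher and 385 lower at an unadjusted p under 0.05. Padi6 was the member among these (log2 -1.64, SE 0.69, adjusted p = 0.707), although its KO value was the higher in oocytes on the deposited scale.

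In oocytes there was 1 array per genotype, so sizes are given without a test. On the deposited scale 7 of the 10 members were higher in KO and 3 lower, where 53.3% of genes tested with the filter were higher. The median log2 difference was 0.47 over the 10 members and 0.09 over genes tested with the filter. Nlrp9b and Nlrp14 did not pass that filter, so these medians are over unlike sets of genes. Khdc3 read 731 in KO and 255 in WT, 2.86-fold higher in KO, and Tle6 993 in KO and 370 in WT, 2.68-fold higher. These were the 2 members at least 2-fold apart, where 23.9% of genes tested with the filter and 33.8% of all genes were at least 2-fold higher in KO and 12.3% at least 2-fold lower. The 3 lower in KO were Nlrp4a (log2 -0.41), Nlrp4b (-0.33) and Nlrp4f (-0.72).

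The direction moved with the scaling, and the 2 oocyte arrays differed in their whole distribution. Without the filter, the 12952 genes under a mean oocyte signal of 500 had a median log2 difference of 0.78. The 278 genes above 20000 had one of -0.67, with 5 of these higher in KO (1.80%). Khdc3 lay in the first range and Nlrp4a, Nlrp4b and Nlrp4f in the last. Relative to the median of all genes in its own range of brightness, 9 of the 10 members were higher in KO, by 0.26 (Nlrp4a) to 1.21 (Tle6), and Nlrp4f was at -0.05. After quantile normalization 9 were higher and 1 lower (Nlrp4f, -0.11), with a median of 0.61, where 49.1% of genes tested were higher. With a common median, which moved the median of the genes tested to -0.46, 3 were higher and 7 lower, with a median of -0.079. Under that scaling 34.7% of genes tested were higher in KO, near the share of the members. Khdc3, Tle6 and Nlrp9b were higher in KO and Nlrp4f lower under all 3 scalings. The 3′ to 5′ ratio of the Actb control probe sets was 6.68 on the KO and 33.4 on the WT oocyte array, that of Gapdh 2.41 in KO and 10.1 in WT, and the brightest Bacillus control 334 in KO and 132 in WT; their part in these differences was not tested.

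**Figure D3:**
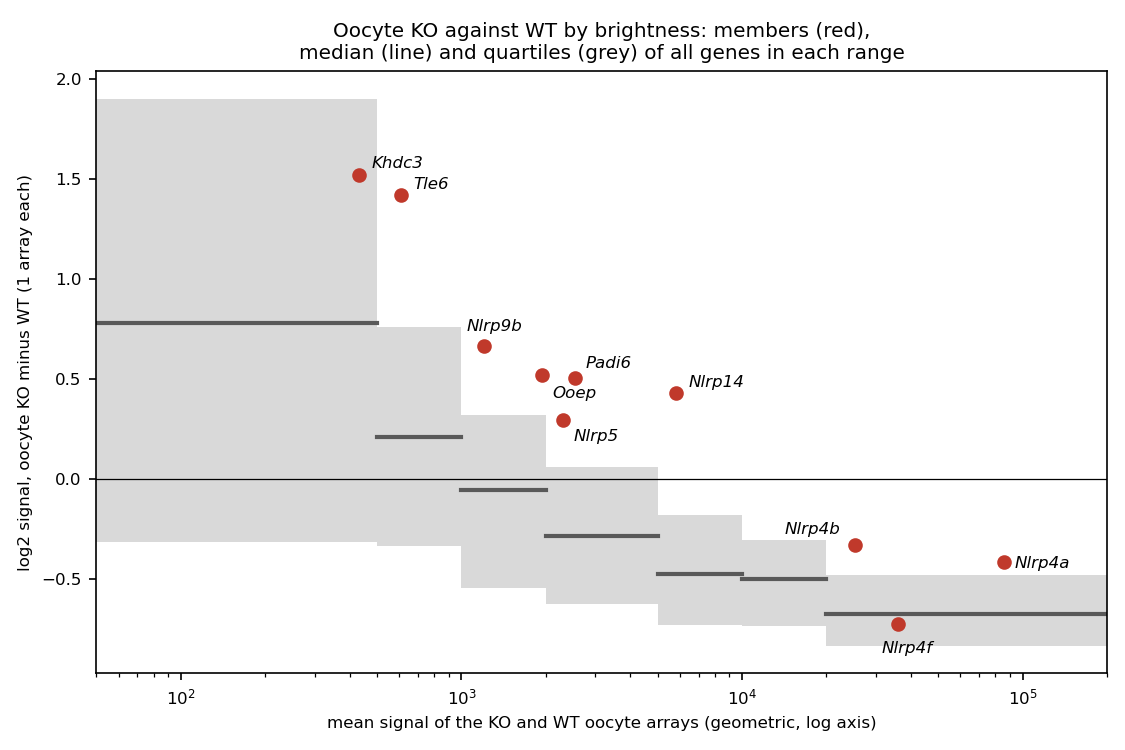
Log2 signal on the KO minus the WT oocyte array (1 array each) against the mean signal of both (log axis), with the 10 members in red and the median (line) and quartiles (grey) of all genes in each range of brightness. The median of all genes is 0.78 in the dimmest range and -0.67 in the brightest, and 9 of the 10 members lie above the line of their range.

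**Figure D4:**
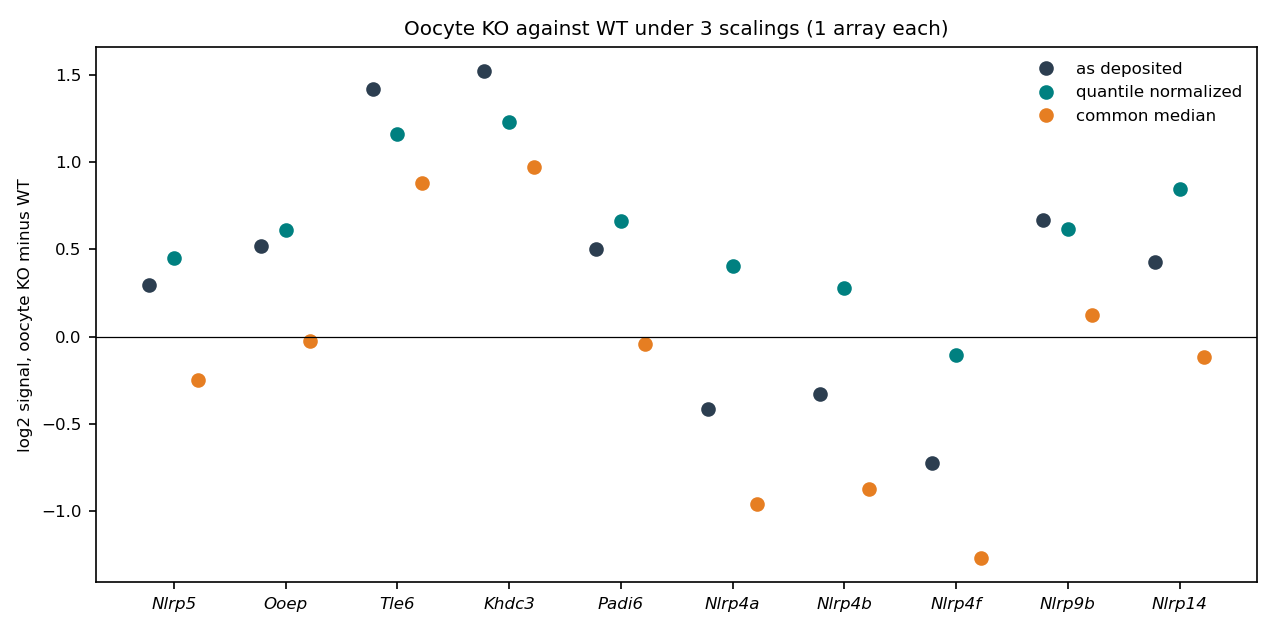
Log2 signal on the KO minus the WT oocyte array for each member as deposited, after quantile normalization and after scaling to a common median (1 array each, no error bar). Khdc3, Tle6 and Nlrp9b are above 0 and Nlrp4f below 0 under all 3, while the other 6 members change side.

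At the implantation site, again with 1 array per genotype, Ooep alone was above background on both arrays, at 312 in KO and 301 in WT (log2 0.051). Tle6, Padi6, Nlrp5 and Nlrp4f were above background on the WT array only. Tle6 read 37.7 in KO against 218 in WT, Padi6 12.7 in KO against 127 in WT, Nlrp5 88.1 in KO against 112 in WT and Nlrp4f 106 in KO against 107 in WT. Khdc3 was above background on the KO array only, at 135 against 52.4 in WT. The background level of the arrays was 131 in KO and 100 in WT. Over all 10 members the median log2 difference was 0.019. Over genes tested with the filter, which leaves out Nlrp9b and Nlrp14, it was -0.13.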

How the data were processed

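The authors deposited 1 table of signal intensity on a linear scale for 8 Affymetrix arrays of polyadenylated RNA, made with MAS5 per the submitters' processing notes (version not given there). It was used without further normalization, except in the alternatives. Single-gene annotations covered 34945 of 45101 probe sets and 18193 genes. A gene was read from whichever of its probe sets had the highest mean of log2 values over 8 arrays, and a filter kept the upper 50% of probe sets (mean signal 151 or more), or 11746 genes. Log2 signals of the stages were fitted over 8 arrays with stage and genotype as terms, and those of blastocyst KO and WT over their 4 arrays, by limma 3.58.1 (R 4.3.3; lmFit, then eBayes with trend). P-values were two-sided and adjusted by Benjamini-Hochberg over all genes tested, with a threshold of 0.05. The scripts were checked on simulated arrays. The members, gene lists and tests were chosen with earlier results of these data known. All members were named, and from each list up to 4 genes with the largest blastocyst to oocyte difference among those past the threshold, or the brightest where none passed. The number of arrays limits the precision. Nothing says that replicates came from separate animals, so the p-values may reflect technical spread alone. Background was read from Bacillus probe sets on the assumption of no Bacillus spike-in, on which the labels are silent. The alternatives were quantile normalization, a common median, a pseudocount of 50, no filter, the upper 30% of probe sets, other rules for probe sets, no trend, only the stages compared, the replicate block, readings raised to background (added after seeing the data, for the stage comparisons) and leaving out each array in turn. Plots were drawn with matplotlib 3.10.9.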

Additional observations from a re-analysis of the deposited data

Results flagged for a closer look

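In Khdc3 the KO difference had opposite signs at 2 stages: both KO blastocyst arrays were below both WT arrays (log2 -0.46), while the KO oocyte array was above the WT array (log2 1.52). Its mean oocyte signal was 432, in the range under 500, where all genes had a median oocyte difference of 0.78 and an upper quartile of 1.90. In the next range, 500 to 1000, the median was 0.21 and the upper quartile 0.76. In Padi6 the deposited values gave a log2 difference of -1.87 in blastocysts and 0.50 in oocytes, but the KO blastocyst readings were under background, so no direction can be read there, and the oocyte difference was -0.041 with a common median. Neither difference between stages was tested, since oocytes had 1 array per genotype.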

How the results depend on the processing

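With only the upper 30% of probe sets 4 members were tested, of which 2 were called lower in blastocysts and 4 lower at the implantation site, both against oocytes; as probe sets, 3 and 4 were called, since fewer members were tested. With every reading below its array's background raised to that level, an alternative chosen after seeing the data, 7 members were called lower at the implantation site than in blastocysts; the background itself was lower on the implantation site arrays, so differences between raised readings there follow from the levels. With a common median the oocyte median difference was -0.079. Leaving out 1 array at a time gave, for blastocyst KO minus WT, -0.25 to 0.11 for Ooep, -0.13 to 0.85 for Nlrp5, -1.91 to 1.82 for Nlrp4a, -1.19 to 2.25 for Nlrp4b and -0.17 to 2.04 for Tle6, so these reversed, and none of them passed; the values without the second KO array were -0.13 for Nlrp5, 1.15 for Nlrp4a and -1.19 for Nlrp4b, and without the first WT array 0.11 for Ooep, 1.82 for Nlrp4a and -0.17 for Tle6. With the replicate block 0 members were called in blastocyst KO minus WT, and the block changed no call; the labels do not pair replicate numbers, and replicate 1 minus replicate 2 in KO correlated with the same difference in WT at r = 0.0182 over 11746 genes, which are not independent of each other. Each member has 1 probe set, so other probe set rules left its value as it was. Signals below the control level on all arrays of a group limit the folds to bounds.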
